A study of Mus musculus with 20 samples.

Results

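Interferon-stimulated genes are the transcripts that cells raise when interferon reaches them. A list of 39 such genes of the mouse, all outside the Ifi200 family of interferon-inducible DNA sensors, was described in 20 gene arrays. It was chosen with earlier results of these data known. The arrays were of bone marrow cells from wild-type and CreER-Rptor-flox/flox mice. A member was taken where a probe set of the array carried exactly its symbol, and the brightest probe set over all 20 arrays was used where there were several. Of the 39 genes, 34 had such a probe set among 22180 genes in all, and 33 were bright enough on average to be tested among 16638 tested genes. Mx1 was the member left out for its low signal, with a mean log2 signal of 3.74 against a limit of 3.86. Oas1a, Dtx3l, Ifi27l2a and Gbp2 shared their probe set with another gene and Ifi44 is unnamed here, so these 5 genes were not analysed here.

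The arrays came from female mice on a C57BL/6 background, either wild type (WT) or CreER-Rptor-flox/flox. Cells of the second genotype are called Rptor cells. The Rptor gene makes Raptor, a scaffold of the kinase complex mTORC1 that couples growth to nutrients, and CreER is a recombinase that acts on floxed alleles after an inducer is given. Common myeloid progenitors (CMPs) and granulocyte-macrophage progenitors (GMPs) were used as sorted, with 3 arrays for each genotype. Lineage-negative marrow cells were kept for 12 h with 10 ng/ml of M-CSF, the growth factor of macrophages, with 4 arrays for each genotype. These Lin- + M-CSF samples are called cultured cells below. The labels give no inducer, do not say whether WT mice carried Cre, which cells express CreER, or whether animals were pooled. Nothing in them ties replicates to different mice, and p-values then reflect the spread between these samples alone, which may be technical.

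Type I interferons bind a receptor of Ifnar1 and Ifnar2, whose kinases phosphorylate Stat2. With Irf9 it joins a transcription factor complex that binds a promoter element called ISRE, and interferon gamma acts through another element, GAS. The genes so induced include sensors of foreign nucleic acid, enzymes and binding proteins that block viral RNA, and the factors of the pathway itself, among them Irf7, Irf9 and Stat2. Haematopoietic progenitors are known to keep part of this set on without infection.

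The promoters of 4 members chosen by rule and of Ifit3, added after its values had been seen, show the element that names the group. Windows came from a RefSeq table of the assembly GRCm38.p6, which covers 250 bases before to 50 after each start, and 29 of the 39 members had one. Trim30a, Ifit1 and Isg15 were the tested members with the core of the ISRE, GAAANN followed by GAAA, that ranked highest by p over the 3 genotype comparisons. Bst2 was the member with the motif whose largest genotype change was smallest. Capitals mark every match on either strand, and overlapping matches run together. The stretches lie before the start at chr7:104465194-104465343 (minus strand, Trim30a), chr19:34640739-34640888 (plus strand, Ifit1), chr4:156200819-156200968 (minus strand, Isg15), chr8:71537473-71537622 (minus strand, Bst2) and chr19:34583353-34583528 (plus strand, Ifit3). Each is written 5′ to 3′ on the strand of its gene.
Trim30a: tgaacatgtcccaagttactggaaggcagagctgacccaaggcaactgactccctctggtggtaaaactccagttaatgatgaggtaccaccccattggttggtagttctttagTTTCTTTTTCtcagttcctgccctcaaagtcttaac
Ifit1: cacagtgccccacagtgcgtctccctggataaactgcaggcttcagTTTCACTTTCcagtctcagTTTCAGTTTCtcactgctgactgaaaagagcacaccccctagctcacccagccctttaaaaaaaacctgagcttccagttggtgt
Isg15: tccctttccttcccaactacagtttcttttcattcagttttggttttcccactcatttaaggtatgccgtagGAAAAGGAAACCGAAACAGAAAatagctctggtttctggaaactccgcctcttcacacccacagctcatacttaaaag
Bst2: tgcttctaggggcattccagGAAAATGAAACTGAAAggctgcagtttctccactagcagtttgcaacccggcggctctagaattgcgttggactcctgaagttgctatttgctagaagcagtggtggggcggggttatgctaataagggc
Ifit3: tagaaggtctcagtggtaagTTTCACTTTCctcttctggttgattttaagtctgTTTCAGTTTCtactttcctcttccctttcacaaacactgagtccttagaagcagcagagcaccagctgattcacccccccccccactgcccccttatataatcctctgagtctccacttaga

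The core was found in 13 of the 29 members with a window (44.8%), against 3.99% of the 27025 genes in the table and 3.44% of all 32851 windows. The other motif, TTCNNNGAA, which reads the same on both strands and is the core of GAS, was found in 6 of the 29 members (20.7%) against 9.55% of genes. In the Bst2 promoter a GAS match overlapped the first ISRE match. A match is a description of these letters and not a measured binding site. Usp18, Zbp1, Parp14, Rtp4, Dhx58, Mx1, Mx2, Oas2, Parp9 and Ifi27l2a have no window in the table.

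Arrays of a group correlated at 0.982 or higher, and the cultured arrays spread more around their group means (0.171 to 0.236 log2 units) than CMP (0.120 to 0.155) or GMP arrays (0.109 to 0.168). The Rptor probe set was lower in Rptor cells by 0.29, 0.17 and 0.18 log2 units in CMPs, GMPs and cultured cells, with no call (limma adjusted p = 0.163, 0.465 and 0.305). Where its probes lie relative to the floxed exons was not used here, so it does not check the genotype. The mean level of 11 progenitor markers overlapped between WT CMP arrays (10.19 to 10.31) and WT GMP arrays (10.23 to 10.31), while single markers differed. Only 3 of these markers are given here. Fcgr3 was 1.08 higher and Flt3 2.03 lower in WT GMPs than in WT CMPs, and Kit differed by -1.78 between cultured WT cells and WT CMPs.

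Interferon-stimulated genes were called lower in Rptor cells of each population, and 1 was called higher, in GMPs. In CMPs 12 of the 33 tested members were called lower and 0 higher at an adjusted p under 0.05 (limma, Benjamini-Hochberg over all 16638 genes), where 5.44% of all genes were called lower and 6.01% higher. At an unadjusted p under 0.05, 17 were lower and 3 higher. In GMPs 14 were called lower and 1 higher, where the background was 7.53% and 4.37%. At an unadjusted p under 0.05, 20 were lower and 2 higher there, and with array weights 22 were called lower and 2 higher. In cultured cells 13 were called lower and 0 higher, against 5.73% and 6.82% of all genes, and at an unadjusted p under 0.05 there were 17 lower and 1 higher. Shares of all genes at the unadjusted p or with weights are not given, so those counts have no background beside them. The median change of the members was -0.36, -0.44 and -0.31 log2 units in CMPs, GMPs and cultured cells, where the median of all genes was -0.01, 0.02 and 0.01.

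Most members lay below 0, by amounts that differed widely. Values lay below 0 in 29 of 33 members in CMPs, 27 in GMPs and 29 in cultured cells, and 25 were below 0 in all 3, as were 18.4% of all genes. In CMPs every Rptor array read below every WT array for 18 members, where 14.9% of all genes did so. This held for 22 members in GMPs (16.2% of genes) and 11 in cultured cells (6.45%). Oasl2, Parp14, Rtp4, Stat2, Trim30a and Zbp1 were called lower in all 3 populations, which is 18.2% of the tested members, while 184 of all genes (1.11%) were. These 3 comparisons share no array. Another 8 members were called lower in 2 populations, 5 in 1 population and 14 in none. Of all genes, 13.2% were called lower in at least 1 population. Without each array in turn the count of lower calls stayed between 8 and 11 in CMPs, 11 and 14 in GMPs and 10 and 14 in cultured cells. It was 8 in cultured cells when their 8 arrays were fitted alone. In a bulk sample, fewer cells of a type and less RNA per cell cannot be told apart.

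**Figure D1:**
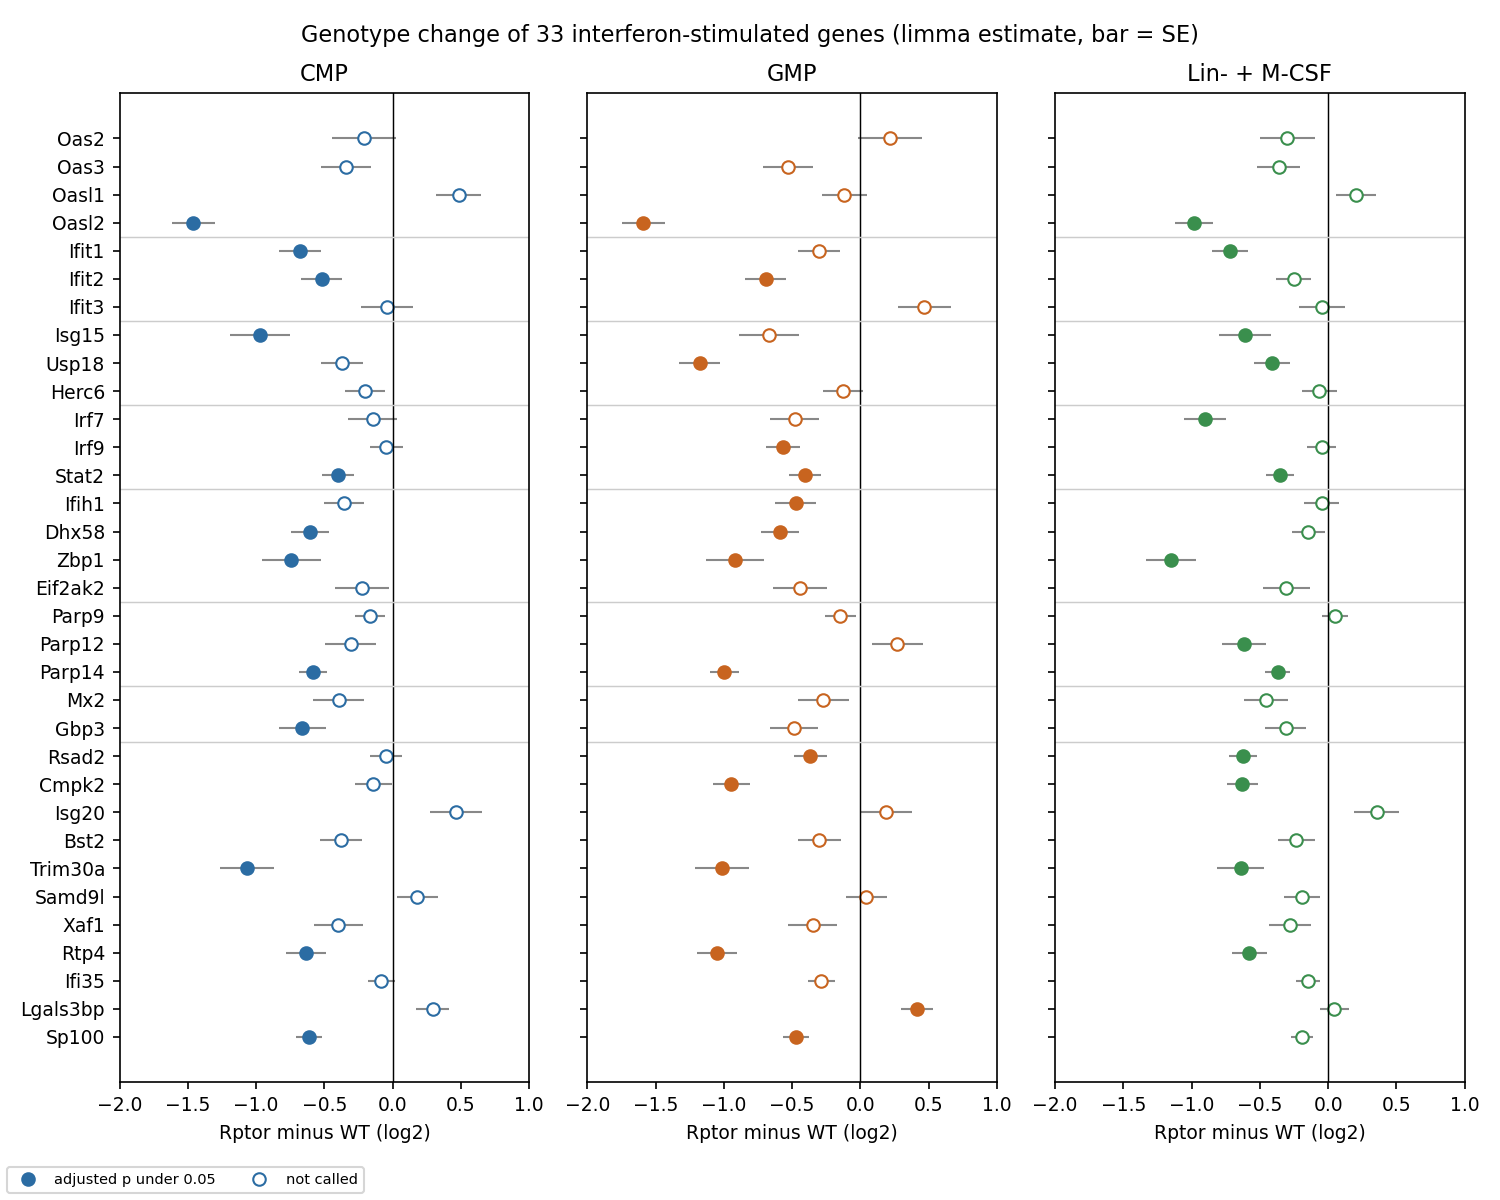
Change of each of the 33 tested members between Rptor and WT cells (log2 units, points) with its standard error (bars) in the 3 populations, ordered by role and separated by grey lines. Filled points have an adjusted p under 0.05; nearly all filled points lie left of 0, with Oasl2 the lowest in CMPs and GMPs and Lgals3bp in GMPs the only one to the right.

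**Figure D2:**
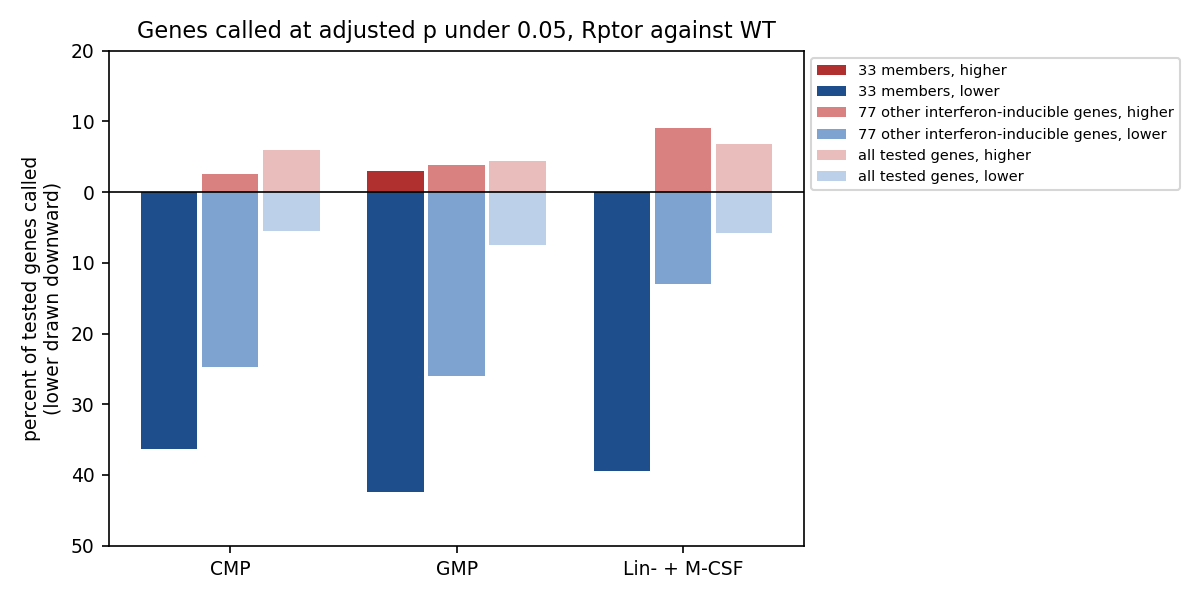
Percent of genes called higher (upward, red) and lower (downward, blue) in Rptor against WT cells for the 33 members, 77 other interferon-inducible genes and all 16638 tested genes. The downward bars of the members are longer than those of all genes (5.44%, 7.53% and 5.73%) in each population.

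Of the 3 members that are factors of the interferon signal, 1 was called lower in CMPs and 2 in each of the other populations. Stat2, a subunit of the ISRE-binding complex, was modestly lower in all 3 populations. Its log2 signal was 8.06, 8.06 and 7.97 in WT CMPs and 7.71, 7.67 and 7.51 in Rptor CMPs. In GMPs it was 8.26, 8.26 and 8.16 in WT and 7.97, 7.86 and 7.64 in Rptor cells, and in cultured cells 8.82, 8.69, 8.51 and 8.54 against 8.40, 8.40, 8.31 and 8.03. Every Rptor array was below every WT array of its population. The falls were 0.40 ± 0.12 (SE; adjusted p = 0.0276), 0.40 ± 0.12 (0.0259) and 0.35 ± 0.10 (0.0251). Over all settings the change of Stat2 ran from -0.44 to -0.34 in CMPs, -0.48 to -0.31 in GMPs and -0.40 to -0.27 in cultured cells. Each of the 3 calls of Stat2 lay near the threshold and was lost when certain single arrays were left out. In CMPs it was lost without any of 5 arrays (all but Rptor array 1; adjusted p = 0.0541 to 0.118) and in GMPs without any of 4 (WT 1 and 2, Rptor 2 and 3; 0.058 to 0.113). In cultured cells it was lost without WT array 1 or 2 or Rptor array 4 (0.0564 to 0.0868). It was also lost in CMPs with median centring (0.068), in GMPs with repeated quantile normalization (0.0726), and in cultured cells fitted alone (0.119) or with array weights (0.0687).

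Irf7, the factor that amplifies interferon production, was called lower in cultured cells. WT arrays there read 6.86, 7.43, 7.18 and 7.62 and Rptor arrays 6.31, 6.53, 6.41 and 6.24, with no overlap and a fall of 0.90 ± 0.16 (SE; 1.87-fold, adjusted p = 0.000497). The difference was -0.15 ± 0.18 in CMPs and -0.48 ± 0.18 in GMPs, neither called. Irf9, which brings the complex to DNA, fell by 0.57 ± 0.12 in GMPs (adjusted p = 0.00342), from 7.80, 7.98 and 7.94 to 7.31, 7.53 and 7.18. Its difference was -0.05 in both other populations.

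Of 4 sensors of foreign nucleic acid, 2 were called lower in CMPs, 3 in GMPs and 1 in cultured cells. Zbp1, which binds left-handed nucleic acid and can trigger cell death, was lower in every population. It read 5.99, 5.95 and 5.93 in WT CMPs against 5.28, 5.10 and 5.26 in Rptor CMPs, and 6.15, 6.47 and 6.44 against 5.63, 5.49 and 5.18 in GMPs. In cultured cells, where its signal was much higher, it read 8.85, 9.0, 8.31 and 9.16 in WT and 7.75, 8.30, 7.28 and 7.39 in Rptor cells. The groups did not overlap in any population, and the falls were 0.74 ± 0.21 (SE; adjusted p = 0.0248), 0.92 ± 0.21 (0.00568) and 1.15 ± 0.18 (0.000223). The call in CMPs was lost without any of 5 of the 6 arrays (all but Rptor array 3; adjusted p = 0.0535 to 0.104), and the other 2 calls held without each array.

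Ifih1, which encodes the cytosolic RNA sensor MDA5, and Dhx58, which encodes its partner LGP2, were called in progenitors. Dhx58 read 7.04, 7.02 and 7.08 in WT CMPs against 6.11, 6.53 and 6.68 in Rptor CMPs, a fall of 0.60 ± 0.14 (SE; adjusted p = 0.0053). In GMPs it read 7.08, 7.19 and 7.51 against 6.69, 6.59 and 6.73, a fall of 0.59 ± 0.14 (0.00711). Neither pair of groups overlapped. The calls were lost without Rptor array 1 in CMPs (adjusted p = 0.0514) and without WT array 3 in GMPs (0.0529). Ifih1 fell by 0.48 ± 0.15 in GMPs (0.0405), a call lost without any of 5 arrays (all but Rptor array 3; 0.0846 to 0.217), with no filter (0.0503) and with repeated quantile normalization (0.058), and differed by -0.36 in CMPs and -0.05 in cultured cells. In cultured cells Dhx58 differed by -0.15. Eif2ak2, the kinase PKR that stops translation on double-stranded RNA, was 0.23, 0.44 and 0.31 log2 units lower in CMPs, GMPs and cultured cells and was called in none of them.

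Of the 4 tested members of the oligoadenylate synthetase family, whose enzymes make the messenger that activates RNase L, Oasl2 accounted for all calls. This relative binds RNA, lies next to Oasl1 on chromosome 5 and showed the largest change of any member in CMPs and GMPs. It read 6.89, 6.69 and 7.07 in WT CMPs and 5.28, 5.52 and 5.47 in Rptor CMPs. It read 6.56, 6.72 and 6.63 in WT GMPs and 4.90, 5.44 and 4.82 in Rptor GMPs, and 7.06, 7.31, 7.69 and 7.35 against 6.38, 6.58, 6.22 and 6.31 in cultured cells. No arrays overlapped. The falls were 1.46 ± 0.16 (SE; 2.75-fold, adjusted p = 1.68e-06), 1.59 ± 0.16 (3.01-fold, 4.97e-07) and 0.98 ± 0.14 (1.98-fold, 5.75e-05), and all held without each array.

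Its neighbour Oasl1, which restrains translation of Irf7, did not follow. Oasl1 read 6.83, 6.84 and 7.01 in WT CMPs and 6.98, 7.77 and 7.39 in Rptor CMPs, which overlap, with a difference of 0.48 ± 0.17 (adjusted p = 0.0687), and it differed by -0.12 in GMPs and 0.20 in cultured cells. Oas2 differed by -0.21, 0.22 and -0.30 and Oas3 by -0.34, -0.53 and -0.36 in CMPs, GMPs and cultured cells, with no call. The probes of such related genes can share sequence, which was not tested.

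Of the 3 Ifit genes, whose proteins bind viral RNA, Ifit1 and Ifit2 were each called in 2 populations and Ifit3 in none. Ifit1 read 5.35, 5.52 and 5.64 in WT CMPs and 4.80, 4.87 and 4.79 in Rptor CMPs, a fall of 0.68 ± 0.15 (SE; adjusted p = 0.00395). In cultured cells it read 5.90, 6.47, 6.28 and 6.21 against 5.33, 5.96, 5.43 and 5.25, a fall of 0.72 ± 0.13 (0.000815) although the highest Rptor array passed the lowest WT array. In GMPs it read 4.97, 5.09 and 4.98 against 4.75, 4.71 and 4.66, with a difference of -0.30 ± 0.15 that was not called. Ifit2 fell by 0.69 ± 0.15 in GMPs (0.0033), from 6.97, 6.93 and 6.55 to 5.81, 6.30 and 6.25, and by 0.52 ± 0.15 in CMPs (0.0257). The CMP call of Ifit2 was lost without any of 5 arrays (all but WT array 2; adjusted p = 0.0627 to 0.154). Ifit3, next to Ifit2 on chromosome 19, differed by -0.04, 0.47 and -0.04 and was called in no genotype comparison. Its promoter, printed above, holds 2 copies of the ISRE core, as that of Ifit1 does.

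Isg15 is a ubiquitin-like protein that is joined to other proteins, Herc6 is the ligase that joins it, and Usp18 removes it and also damps the interferon receptor. Isg15 read 5.78, 5.35 and 6.01 in WT CMPs and 4.50, 4.65 and 5.05 in Rptor CMPs, a fall of 0.97 ± 0.22 (SE; 1.97-fold, adjusted p = 0.00438) with no overlap. In GMPs it read 5.43, 5.13 and 5.15 against 4.53, 4.76 and 4.40, where the difference of -0.67 ± 0.22 just missed the threshold (0.0513). In cultured cells it read 6.54, 6.44, 5.58 and 6.48 against 5.48, 6.02, 5.64 and 5.47. These groups overlap through WT array 3, and the fall of 0.61 ± 0.19 (0.0393) was not called without any of the 6 arrays other than WT array 3 and Rptor array 2 (adjusted p = 0.0731 to 0.11), or with the cultured arrays fitted alone (0.124).

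Usp18 was lowest in Rptor GMPs. It read 6.49, 6.46 and 6.63 in WT GMPs against 5.24, 5.55 and 5.25 in Rptor GMPs, a fall of 1.18 ± 0.15 (SE; 2.26-fold, adjusted p = 1.39e-05) that held without each array. In CMPs it read 6.94, 6.56 and 6.78 against 6.33, 6.68 and 6.16, with a difference of -0.37 ± 0.15 that was not called. Cultured arrays read 6.78, 6.86, 6.55 and 6.99 in WT and 6.67, 6.20, 6.21 and 6.46 in Rptor cells, which overlap. The fall there of 0.41 ± 0.13 (0.0445) was lost without any of 6 arrays (all but WT array 3 and Rptor array 1; 0.0564 to 0.125). It was also lost with no filter (0.0531), the cultured arrays fitted alone (0.113), array weights (0.0868) and median centring (0.0544). Herc6 differed by -0.20, -0.13 and -0.07 and was not called.

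Parp9, Parp12 and Parp14 belong to the enzymes that attach ADP-ribose to proteins. Parp14 read 7.49, 7.42 and 7.63 in WT CMPs against 7.05, 6.73 and 7.01 in Rptor CMPs, and 7.26, 7.37 and 7.20 against 6.21, 6.25 and 6.38 in GMPs. Cultured arrays read 8.29, 8.36, 8.31 and 8.29 in WT and 7.85, 7.88, 7.95 and 8.10 in Rptor cells. No arrays overlapped in any population. The falls were 0.59 ± 0.10 (SE; adjusted p = 0.000449), 1.0 ± 0.10 (1.99-fold, 7.78e-07) and 0.37 ± 0.09 (0.00913), and they held without each array, while the last was 0.051 when cultured arrays were fitted alone.

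Parp9, in the same cluster on chromosome 16, differed by -0.16, -0.15 and 0.05 and was called in no genotype comparison. Parp12 was called in cultured cells, from 7.20, 7.60, 7.60 and 7.53 to 6.67, 7.32, 6.66 and 6.81, a fall of 0.62 ± 0.16 (SE; adjusted p = 0.0152) with overlapping arrays. That call was lost without Rptor array 1 (0.0505). In GMPs the 3 Rptor arrays (8.45, 8.39 and 8.32) were above the WT arrays (8.15, 7.89 and 8.30), with a difference of 0.27 ± 0.19 that was not called.

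Of the interferon-inducible GTPases, Gbp3, a guanylate-binding protein of cell-autonomous defence, was called in CMPs. It read 7.57, 7.42 and 7.41 in WT CMPs and 6.84, 6.61 and 6.96 in Rptor CMPs, a fall of 0.66 ± 0.17 (SE; adjusted p = 0.0136) that was lost without WT array 1 or Rptor array 2 (0.0618 and 0.088). It differed by -0.49 in GMPs and -0.31 in cultured cells. Mx2, of the dynamin-like Mx family, differed by -0.40, -0.27 and -0.45 with no call. Its relative Mx1, below the limit for testing, read 4.12, 3.56 and 4.01 in WT CMPs against 3.54, 3.28 and 3.57 in Rptor CMPs, which overlap. It read 3.64, 3.83 and 4.09 in WT GMPs against 3.34, 3.33 and 3.33 in Rptor GMPs, and in cultured cells 3.98, 4.41, 4.39 and 4.76 against 3.23, 3.21, 3.61 and 3.58, without overlap in either.

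Among the remaining effectors Trim30a and Rtp4 fell in all 3 populations. Trim30a, a ubiquitin ligase that restrains inflammatory signalling, read 7.41, 7.11 and 7.31 in WT CMPs against 5.90, 6.38 and 6.35 in Rptor CMPs, and 7.12, 7.38 and 7.19 against 6.11, 6.03 and 6.50 in GMPs. It read 7.15, 7.15, 7.41 and 7.85 against 6.67, 6.41, 6.68 and 7.24 in cultured cells. The sorted groups did not overlap, and the cultured ones did. The falls were 1.07 ± 0.20 (SE; 2.10-fold, adjusted p = 0.000681), 1.01 ± 0.20 (2.02-fold, 0.00132) and 0.64 ± 0.17 (0.0169). The last was lost without WT array 4 or Rptor array 2 (0.0637 and 0.065) and with the cultured arrays fitted alone (0.0851).

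Rtp4, a chaperone for receptors at the membrane, read 6.68, 6.6 and 6.68 in WT CMPs against 5.93, 6.13 and 5.99 in Rptor CMPs. It read 6.29, 6.15 and 6.23 against 5.29, 5.44 and 4.78 in GMPs and 7.37, 7.19, 7.60 and 7.50 against 6.82, 7.11, 6.65 and 6.77 in cultured cells. No arrays overlapped, and the falls of 0.64 ± 0.15 (SE; adjusted p = 0.00514), 1.05 ± 0.15 (2.07-fold, 3.54e-05) and 0.58 ± 0.13 (0.0043) held without each array.

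Cmpk2, a mitochondrial nucleotide kinase, and Rsad2, which encodes the antiviral enzyme viperin, are neighbours on chromosome 12 and were both called in GMPs and cultured cells. Cmpk2 read 8.53, 8.90 and 8.62 in WT GMPs against 7.65, 7.88 and 7.67 in Rptor GMPs, a fall of 0.94 ± 0.13 (SE; adjusted p = 4.27e-05). In cultured cells it read 7.63, 7.60, 7.86 and 7.67 against 7.32, 7.07, 6.99 and 6.85, a fall of 0.63 ± 0.12 (0.000903). Both pairs of groups stood apart, while the CMP arrays overlapped at 8.49, 8.52 and 8.58 in WT and 8.35, 8.63 and 8.18 in Rptor cells. Rsad2 read 6.03, 6.09, 6.24 and 6.12 against 5.39, 5.47, 5.76 and 5.35 in cultured cells, a fall of 0.62 ± 0.10 (0.000303). Its fall in GMPs of 0.37 ± 0.12 (0.0485) was lost without any of 5 arrays (all but Rptor array 2; 0.0975 to 0.242). That call was also lost with no filter (0.0597), the GMP arrays fitted alone (0.0597), robust eBayes with a trend (0.0734) and repeated quantile normalization (0.0587). In CMPs Rsad2 differed by -0.05.

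Sp100, a protein of nuclear bodies, fell in the sorted progenitors. It read 9.61, 9.55 and 9.63 in WT CMPs against 8.90, 8.99 and 9.08 in Rptor CMPs, and 9.45, 9.55 and 9.35 against 8.87, 9.04 and 9.02 in GMPs, with falls of 0.61 ± 0.10 (SE; adjusted p = 0.000111) and 0.47 ± 0.10 (0.00177). It differed by -0.19 ± 0.08 in cultured cells (0.14). Lgals3bp, a secreted glycoprotein, was the 1 member called higher, in GMPs, from 9.95, 9.86 and 10.08 to 10.42, 10.40 and 10.29, a difference of 0.41 ± 0.12 (0.0266). That call was lost without any of 4 arrays (WT 1 and 2, Rptor 1 and 2; 0.0801 to 0.127) and with the mean of its 2 probe sets (0.19; 0.34). Isg20, an exonuclease for RNA, differed by 0.46, 0.19 and 0.35 in CMPs, GMPs and cultured cells and was not called. Bst2, the tether that holds budding virus at the membrane, differed by -0.38, -0.30 and -0.23, Xaf1 by -0.40, -0.35 and -0.28, Samd9l by 0.18, 0.04 and -0.19 and Ifi35 by -0.08, -0.29 and -0.15, with no call.

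**Figure D3:**
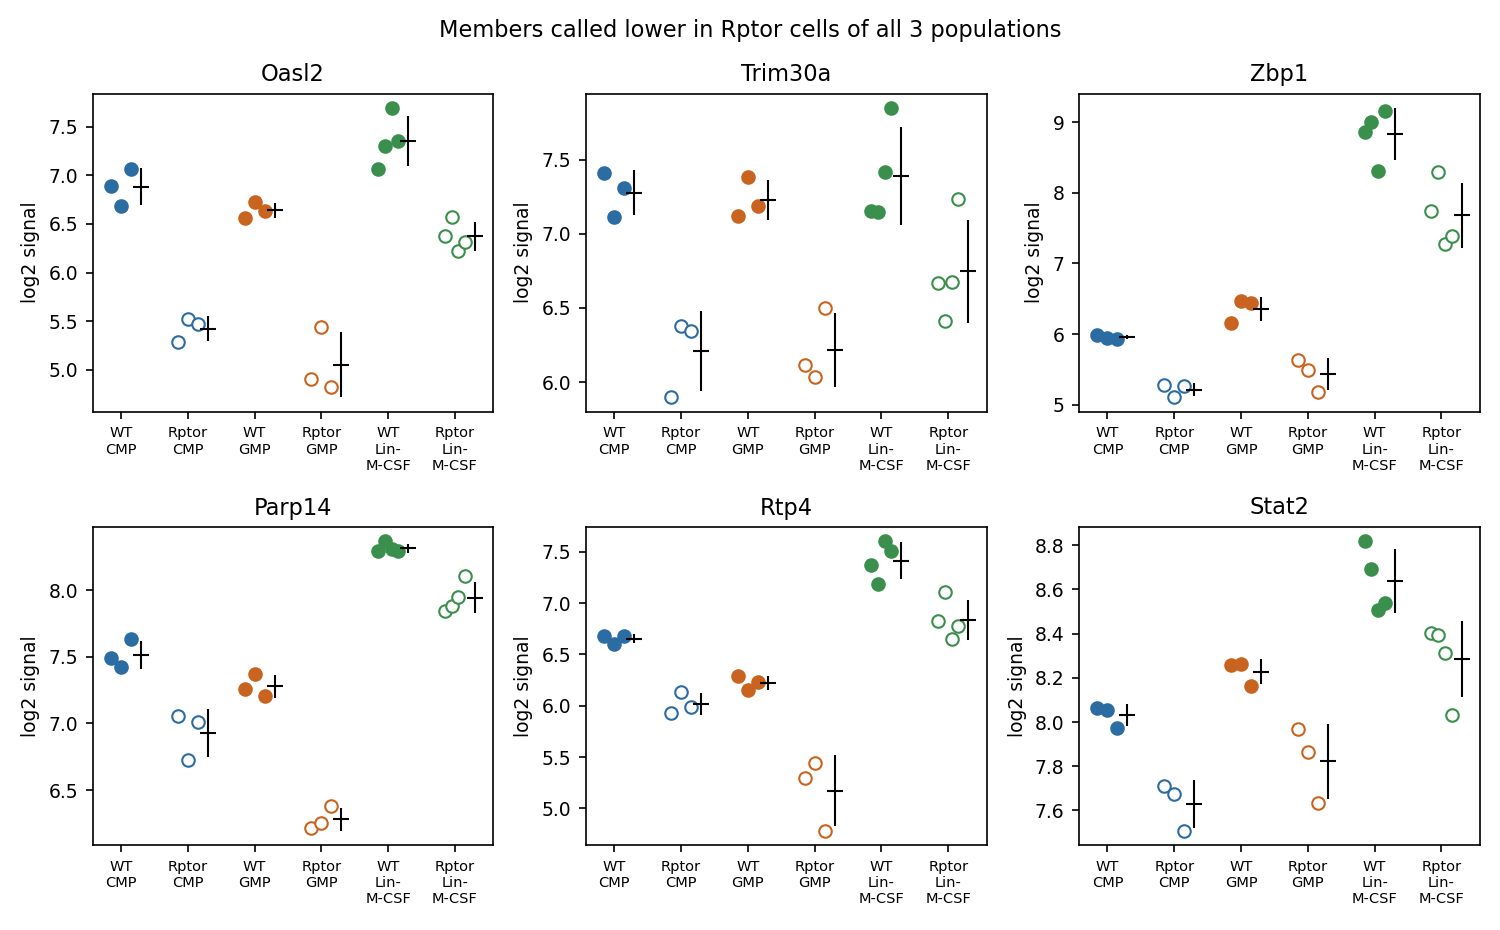
Log2 signal on every array of the 6 members called lower in Rptor cells of all 3 populations, with WT arrays filled and Rptor arrays open. The cross and bar beside each group are its mean and SD (n = 3, or 4 for Lin- + M-CSF), and only for Trim30a in cultured cells do the arrays of the genotypes overlap.

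The genotype change was compared between populations by interaction terms in the same limma fit. Of the 33 members, 1 was called for GMPs against CMPs (2.5% of all genes), 2 for cultured cells against CMPs (7.77%) and 3 for cultured cells against GMPs (4.77%), and these 3 terms share arrays. Counts this low do not set the members apart from all genes. With array weights the first and the third count were 6 each, with no share of all genes given for that setting. The first was 2 with the populations fitted alone, the 50th percentile filter, repeated quantile normalization or median centring, and the second was 1 with the populations alone, centring, no filter or the mean of probe sets. Cmpk2 had a genotype change of -0.14 in CMPs and -0.94 in GMPs (interaction -0.80 ± 0.19 SE, adjusted p = 0.0221). Rsad2 differed in the same direction in cultured cells (-0.62) against CMPs (-0.05; interaction -0.58 ± 0.16, 0.0246). Sp100 changed less in cultured cells (-0.19) than in CMPs (-0.61; interaction 0.42 ± 0.13, 0.0457).

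The changes of Parp14 and Usp18 were larger in GMPs, and that of Parp12 in cultured cells. Parp14 changed by -1.0 in GMPs and -0.37 in cultured cells (interaction 0.63 ± 0.14 SE, adjusted p = 0.0091), and this call held without each array. Usp18 changed by -1.18 and -0.41 (0.77 ± 0.20, 0.0309). Parp12 changed by 0.27 in GMPs and -0.62 in cultured cells (-0.89 ± 0.25, 0.0413).

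Apart from that of Parp14, each interaction was lost when single arrays were left out. For Cmpk2 these were WT array 1 and Rptor array 2 of CMPs and Rptor array 1 and WT array 2 of GMPs (adjusted p = 0.0564 to 0.0889). For Rsad2 they were Rptor array 1 of cultured cells and Rptor arrays 1 and 2 and WT array 2 of CMPs (0.0504 to 0.082). The call of Sp100 was lost without any of 10 arrays (0.0604 to 0.128), that is, all arrays of both populations but WT arrays 2 and 4 and Rptor array 3 of cultured cells and Rptor array 3 of CMPs. With the mean of the probe sets of Sp100 its interaction was 0.26 (0.406), and the call was also lost with no filter (0.0538), these populations fitted alone (0.0729) and median centring (0.0871). That of Parp12 was lost without any of 11 (0.0579 to 0.135), all but WT array 1 and Rptor array 2 of cultured cells and WT array 3 of GMPs, and with median centring (0.0599). That of Usp18 was lost without any of 7 (0.0552 to 0.0862), which were WT array 3 and Rptor array 1 of cultured cells and, in GMPs, every WT array and Rptor arrays 1 and 3.

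**Figure D4:**
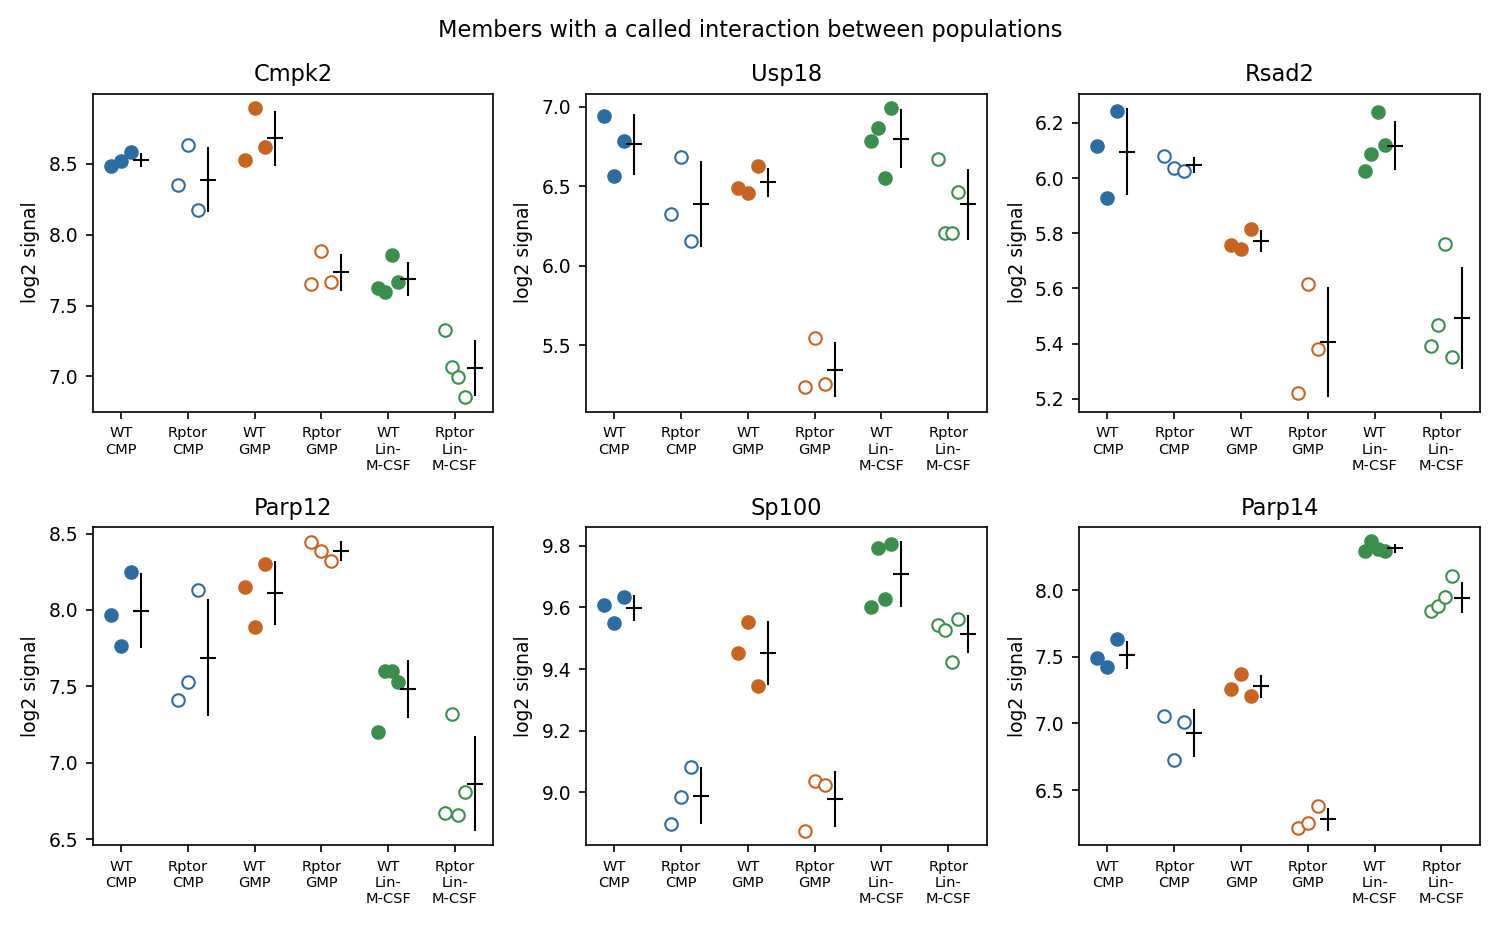
Log2 signal on every array of the 6 members whose genotype change differed between populations by an interaction term, with WT arrays filled, Rptor arrays open, and mean and SD beside each group (n = 3, or 4 for Lin- + M-CSF). Usp18 and Cmpk2 show a wide gap between genotypes in GMPs and overlapping arrays in CMPs.

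Between the WT populations, the members differed mostly in the cultured cells. Between WT GMPs and WT CMPs 0 members were called higher and 3 lower, where 6.65% and 4.35% of all genes were called, and 0 higher and 10 lower at an unadjusted p under 0.05. The count of lower calls depended on the setting, with 13 under array weights, 5 with the 50th percentile filter, 1 with arrays centred on their median, and 5 beside 1 higher call with these populations fitted alone. Shares of all genes at the unadjusted p or under these settings are not given. Isg20 was 0.70 ± 0.19 (SE) lower in GMPs (adjusted p = 0.0199), at 6.65, 6.64 and 6.75 against 7.53, 7.27 and 7.36. Samd9l was 0.53 ± 0.15 lower (0.0277), at 6.03, 5.92 and 5.98 against 6.52, 6.38 and 6.62, and Ifit1 was 0.49 ± 0.15 lower (0.0401). No arrays of these 3 overlapped. Each call was lost on leaving out single arrays, for Isg20 WT CMP array 1 or any WT GMP array (0.0537 to 0.0855), for Samd9l also WT CMP array 3 (0.0614 to 0.104), and for Ifit1 WT CMP array 2 or 3 or any WT GMP array (0.0606 to 0.15). With median centring Samd9l (0.0545) and Ifit1 (0.0893) also lost it, and Ifit1 did with repeated quantile normalization (0.0895).

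Cultured WT cells had 15 members higher and 9 lower than WT CMPs, where 19.6% and 36% of all genes were called. Against WT GMPs 18 were higher and 7 lower (20.3% and 36.1% of genes). The median change of the members was 0.11 and 0.35, and that of all genes -0.14 in both. These 2 comparisons share the cultured WT arrays, and sorting gate, culture and M-CSF differ together, so that they cannot be told apart. By the probe sets used, Zbp1 was the extreme, with a mean of 8.83 ± 0.37 (SD, n = 4) in cultured WT cells. The WT CMPs had 5.96 ± 0.03 and the WT GMPs 6.35 ± 0.17 (SD, n = 3 each), which gives differences of 2.88 ± 0.20 (SE; 7.34-fold) and 2.48 ± 0.20 (5.57-fold). Irf7 was 1.08 and 1.43 higher, Ifit1 0.71 and 1.20, Rtp4 0.76 and 1.19, Parp14 0.80 and 1.04, and Xaf1, a pro-apoptotic protein, 0.81 and 1.23, and all of these were called. Oas2, Oas3, Isg15 and Samd9l were called higher in both comparisons. Oas2 was 0.82 and Oas3 0.72 above CMPs, and Isg15 was 1.03 and Samd9l 1.05 above GMPs. The call of Isg15 against CMPs was lost without any of 5 arrays (adjusted p = 0.0505 to 0.186) and with these populations fitted alone (0.0508). That of Oas2 against GMPs was lost without any of 4 arrays (0.0571 to 0.104).

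Other members were lower in the cultured cells. Oasl1 was 1.09 and 1.0 lower than in CMPs and GMPs, at 5.67, 5.80, 5.74 and 6.00 on the cultured WT arrays, below every WT CMP and GMP array. Cmpk2 was 0.84 and 0.99 lower, Ifit2 0.62 and 0.53, and Parp12 0.51 and 0.63. Against CMPs Irf9 (0.47 lower), Gbp3 (0.56) and Isg20 (0.52) were also called, and against GMPs Dhx58 (0.40). The calls of Parp12 and Isg20 against CMPs were lost without cultured WT array 1 or a WT CMP array (array 3 for Parp12, array 1 for Isg20; adjusted p = 0.0576 to 0.105 and 0.0645 to 0.0717), and that of Dhx58 without WT GMP array 3 (0.107), with array weights (0.0513) and with repeated quantile normalization (0.0559). For 2 further members the direction depended on the probe set. By the brighter probe set Lgals3bp was 0.58 and 0.63 lower and Ifi35 0.26 and 0.30 lower than in CMPs and GMPs. With the mean of their 2 probe sets Lgals3bp was 1.32 and 1.35 higher and Ifi35 0.74 and 0.75 higher.

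Across the 6 groups, 19 of the 33 members had their highest mean in cultured WT cells and 18 their lowest in Rptor GMPs. This was not counted over all tested genes, so the order is not shown to be particular to the members. Neighbouring groups in this order often overlapped on their arrays, as for Isg15 between WT CMPs and the cultured WT cells. In cultured Rptor cells Zbp1 (7.68 ± 0.46 SD, n = 4) still stood above both WT progenitor groups, whereas Oasl2 (6.37 ± 0.15) lay below the WT CMP arrays and overlapped those of WT GMPs.

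**Figure D5:**
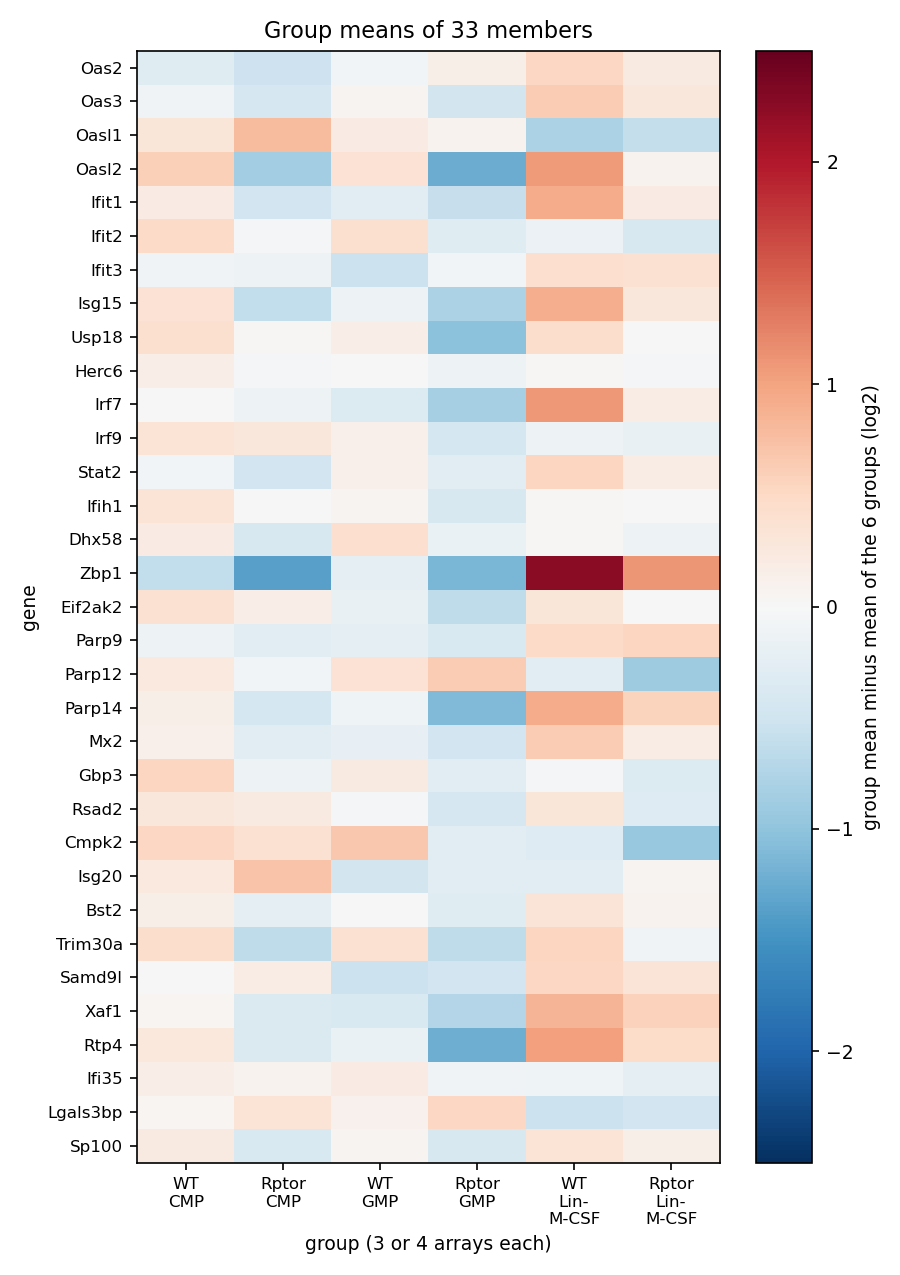
Mean log2 signal of each of the 33 members in each group, as the difference from the mean of the 6 group means (colour, log2 units; red above, blue below). The column of cultured WT cells holds the highest mean of 19 members and that of Rptor GMPs the lowest of 18, which was not counted over all genes.

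Other genes of the pathway, listed with earlier results known, were set beside the members. Of all genes, 5.44%, 7.53% and 5.73% were called lower in CMPs, GMPs and cultured cells, and 6.01%, 4.37% and 6.82% higher. Low counts in short lists do not stand apart from these shares. Of 8 tested interferon genes 0 were called in any population by limma, with 0, 0 and 0 higher and 1, 0 and 0 lower at an unadjusted p under 0.05. The mean level of their probe sets was 5.66 to 5.79 on WT and 5.57 to 5.67 on Rptor CMP arrays, 5.68 to 5.74 and 5.69 to 5.84 in GMPs, and 5.51 to 5.67 and 5.46 to 5.61 in cultured cells, so the genotypes overlapped in each. Interferon protein was not measured. Of 13 receptor and JAK-STAT genes, 3 were called lower and 0 higher in CMPs, 2 lower and 2 higher in GMPs, and 2 lower and 1 higher in cultured cells. Irf8, a factor of monocyte and dendritic cell formation that also binds ISRE-like sites, fell by 1.88 ± 0.18, 2.76 ± 0.18 and 0.54 ± 0.16 (SE; adjusted p = 2.67e-07, 1.19e-09 and 0.0249). Irf1 fell by 0.48 and the receptor chain Ifnar2 by 0.30 in CMPs, Ifngr2 fell by 0.42 in GMPs and 0.41 in cultured cells, and Stat3 rose by 0.58 in GMPs.

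Of 11 genes that damp the signal, Socs1, an inhibitor of JAK kinases, rose by 0.46 in CMPs, and the others called (2 in GMPs and 2 in cultured cells) fell, among them Pias1 by 0.35 and Ptpn1 by 0.31. Of 15 genes of nucleic acid sensing and interferon induction, 5, 5 and 3 were called lower and 2, 3 and 2 higher in CMPs, GMPs and cultured cells. The shares of all genes given above apply to these lists too. Tlr9, a receptor for DNA in endosomes, fell by 0.85, 1.01 and 0.84, while Tlr7, a receptor for RNA there, rose by 1.01 in CMPs and 1.12 in GMPs. Tlr8 fell by 1.39 in GMPs and 2.77 in cultured cells. Among 77 further interferon-inducible genes, 19, 20 and 10 were called lower and 2, 3 and 7 higher, with medians of -0.17, -0.17 and -0.10. Oas1g fell by 1.85 in CMPs and 1.14 in cultured cells, Trim30d by 1.70 in GMPs, and Mlkl, the effector of necroptosis, by 0.97 in both CMPs and GMPs, while Tnfsf10, the death ligand TRAIL, rose by 0.93 in cultured cells. Of the 6 tested Ifi200 genes 4, 4 and 5 were called lower, with medians of -0.89, -1.13 and -1.25.

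Markers of other cell types also differed between the genotypes, some lower and some higher in Rptor cells. The shares of all genes called were 5.44%, 7.53% and 5.73% lower and 6.01%, 4.37% and 6.82% higher in CMPs, GMPs and cultured cells. Of 11 tested monocyte markers 7, 7 and 9 were called lower in CMPs, GMPs and cultured cells and 0 higher, at an unadjusted p under 0.05 with 1 higher in each. Their mean level was 8.63 to 8.74 on WT CMP arrays and 7.68 to 7.87 on Rptor CMP arrays, 9.18 to 9.21 against 8.10 to 8.18 in GMPs, and 9.84 to 10.1 against 8.70 to 8.77 in cultured cells. Of 8 erythroid markers 6, 4 and 6 were called higher and 0 lower. Their mean level was 8.21 to 8.45 against 9.30 to 10.0 in CMPs, 5.49 to 5.79 against 6.28 to 7.28 in GMPs and 5.65 to 6.07 against 6.63 to 7.32 in cultured cells. The groups did not overlap for either list, and the part of these shifts in the fall of the interferon-stimulated genes was not tested.

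Plasmacytoid dendritic cells are strong makers of interferon. Of 14 of their markers 3, 4 and 4 were called lower and 0, 0 and 2 higher, and their mean level was 5.96 to 6.10 against 5.72 to 5.80 in CMPs, 6.09 to 6.30 against 5.86 to 5.92 in GMPs and 8.14 to 8.33 against 7.79 to 8.43 in cultured cells. Of 10 neutrophil markers 6, 4 and 1 were lower and 0, 2 and 0 higher. Of 9 resident macrophage markers 0, 2 and 3 were lower and 5, 3 and 0 higher, and of 9 T and NK cell markers 1, 0 and 0 were lower and 1, 0 and 5 higher. Of 7 B cell markers 1, 1 and 0 were lower, and of 11 progenitor markers 5, 1 and 0 were lower and 2, 3 and 3 higher. Low counts in these short lists do not stand apart from the shares of all genes given above. The part of these lists in the members' changes was not tested either.

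Members called lower were found both with and without the ISRE core. The tested members Usp18, Zbp1, Parp14, Rtp4, Dhx58, Mx2, Oas2 and Parp9 have no window and are left out of this split. Of the 11 tested members whose promoter window holds the core, 7 were called lower in at least 1 population, with 5 in CMPs, 4 in GMPs and 5 in cultured cells. Of the 14 tested members whose window lacks it, 7 were called lower in at least 1, with 3, 5 and 4. Of all genes, 13.2% were called lower in at least 1 population, and 5.44%, 7.53% and 5.73% in CMPs, GMPs and cultured cells. Oasl2, Irf7 and Cmpk2 were among the members without a match and Trim30a, Ifit1, Isg15, Stat2 and Rsad2 among those with one. No match says only that these letters are not in the window, and no test was made of this split.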

How the data were processed

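Per the labels' protocols, 1 to 5 ng of total RNA from sorted cells was amplified with a NuGEN whole-transcript kit and hybridized to single-channel arrays. The authors deposited log2 values of 41345 probe sets, which range from 1.77 to 13.2. RMA, Partek 6.6 and limma are named in the submitters' processing notes, with no role given. RMA matches arrays by quantiles, so a shift shared by most transcripts is removed. The platform annotation gave 1 symbol to 23521 probe sets, several to 1814 and left 16010 unnamed here. Entrez identifiers of 23328 were found in a RefSeq table, and 0 symbols changed.

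Each of 22180 genes was read from its brightest probe set, and the 16638 whose mean reached the 25th percentile (log2 3.86) were tested. All 20 arrays entered 1 model with 6 group means (limma 3.58.1 under R 4.3.3, lmFit and eBayes), with 14 residual degrees of freedom. P-values were adjusted by Benjamini-Hochberg over all tested genes, and calls were made at an adjusted p under 0.05. There were 9 comparisons, of which 3 were of genotype, 3 of WT populations and 3 interactions. Detection above background was not assessed, and the number of arrays limits the precision.

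The members and lists were chosen with earlier results of these data known. Members are given array by array where they were among the 8 of largest change per direction among called members of a comparison, or among the 5 of an interaction. Other members were chosen after their values were seen. Of other lists up to 4 called genes of smallest p could be named, with Irf8 and Rptor always, and a further gene of that rule is not reported here. The fit was tested on simulated arrays with 1 spread per gene, pooled over the 6 groups, and few changed genes. It called 30%, 29% and 48% of genes changed by 0.5 log2 units in CMPs, GMPs and cultured cells. Of those changed by 1 it called 96%, 96% and 99%. Real cultured arrays spread more than sorted ones, and more genes were called in the data, so these percentages may not hold there. Alternatives were other filters, probe sets averaged per gene, the populations compared alone, a replicate block, weights for arrays, eBayes with a trend, 2 rescalings and each array left out. Figures were drawn with matplotlib 3.10.9.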

Additional observations from a re-analysis of the deposited data

Results flagged for a closer look

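Among 68 sets of 4 cultured arrays (34 members in each genotype), 4 had an array far from the other 3, where chance gives about 1 in 20. Isg15 was lowest on cultured WT array 3 at 5.58, with the others at 6.44 to 6.54. Ifih1 was lowest on the same array at 7.36, with the others at 7.63 to 7.67. Mx2 was highest on cultured WT array 4 at 5.36, with the others at 4.64 to 4.74. Ifi35 was lowest on cultured Rptor array 1 at 7.80, with the others at 7.96 to 7.97.

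The genotype change of 5 genes differed between populations by an interaction test, and that of Parp14 did too, with the size of each difference in log2 units. In GMPs against CMPs it was -0.80 for Cmpk2 (limma adjusted p = 0.0221). In cultured cells against CMPs it was -0.58 for Rsad2 (0.0246) and 0.42 for Sp100 (0.0457). In cultured cells against GMPs it was -0.89 for Parp12 (0.0413), 0.63 for Parp14 (0.0091) and 0.77 for Usp18 (0.0309). So few calls do not set the members apart from all genes.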

How the results depend on the processing

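Alternatives were run for the members, not for the other lists. Shares of all genes called are given for the main fit only. Of 880 changes of called members under settings that kept all arrays of the comparison, 835 kept direction and call, 41 kept the direction and missed the threshold, and 4 reversed. The reversed ones are Lgals3bp (1.32 against WT CMPs and 1.35 against WT GMPs) and Ifi35 (0.74 and 0.75) in cultured WT cells with the mean of their probe sets. Of 709 changes with an array left out, 577 kept the call and 132 missed the threshold. The mean of probe sets also gave 0 members higher in GMPs, 1 interaction for cultured cells against CMPs, and medians of 0.47 and 0.49 for cultured WT cells against WT CMPs and GMPs. Array weights gave 1 member higher in CMPs, 2 higher and 22 lower in GMPs, 13 lower in WT GMPs against WT CMPs, and 6 interactions each for GMPs against CMPs and cultured cells against GMPs. The weights ran from 0.52 to 4.70, the last on Rptor GMP array 1. With the populations compared fitted alone, 8 were lower in cultured cells, 1 higher and 5 lower in WT GMPs against WT CMPs, and the interactions numbered 2 for GMPs against CMPs and 1 for cultured cells against CMPs. A 50th percentile filter gave 5 lower in WT GMPs against WT CMPs, and it, repeated quantile normalization and median centring each gave 2 interactions for GMPs against CMPs. Centring gave 1 lower in WT GMPs against WT CMPs, and centring or no filter left 1 interaction for cultured cells against CMPs.

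With an array left out, higher calls ran from 0 to 1 in CMPs, 0 to 2 in GMPs and 0 to 0 in cultured cells, and lower calls from 8 to 11, 11 to 14 and 10 to 14. Lower calls ran from 0 to 2 in WT GMPs against WT CMPs. Interactions ran from 0 to 2 for GMPs against CMPs, 0 to 3 for cultured cells against CMPs and 1 to 4 for cultured cells against GMPs. Median changes ran from -0.39 to -0.25 in CMPs, -0.45 to -0.37 in GMPs and -0.37 to -0.24 in cultured cells.

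The genotypes share replicate numbers, but same-numbered arrays did not deviate together, with correlations of -0.17 to 0.12 in CMPs, -0.34 to -0.03 in GMPs and -0.09 to 0.06 in cultured cells. Arrays of different numbers correlated at -0.19 to 0.25 in CMPs, -0.04 to 0.34 in GMPs and -0.14 to 0.08 in cultured cells. The highest were WT array 2 with Rptor array 3 (0.337) and WT array 3 with Rptor array 2 (0.329) of GMPs. Whether arrays share a batch under other numbers was not tested, and deviations from means of 3 or 4 arrays cannot show it. With the replicate block 91 of 98 calls held. The lost ones were the interactions of Sp100 (adjusted p = 0.109), which left 1 for cultured cells against CMPs, and Usp18 (0.0642), the falls of Ifit2 in CMPs (0.0565), Rsad2 in GMPs (0.0717) and Usp18 in cultured cells (0.0776), and in cultured WT cells the differences of Isg15 from WT CMPs (0.0536) and Eif2ak2 from WT GMPs (0.0735). The cause of these differences was not tested.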
